A study of Mus musculus with 6 samples.

Results

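The 9 genes described here, *Cldn1*, *Cldn4*, *Cldn7*, *Ocln*, *Tjp1*, *F11r*, *Cdh1*, *Ctnna1* and *Ctnnd1*, encode proteins of the tight and adherens junctions. They were chosen by symbol, with no threshold on their values but with earlier results of these data known, and are 9 of the 17554 genes in a table of bulk RNA-seq of the mouse corneal epithelium. RNA of the epithelial layer came from 3 control and 3 mutant mice, all 2 months old and of the C57BL/6 strain, with 1 library each. The labels call the genotypes WT and Rela-/-. The study's methods give the libraries as independent biological samples. Which alleles the control mice carried, and whether they were littermates, is not given in the sources used here. The mutant mice are *Krt14-Cre; Rela f/f*, a cross in which the keratin 14 promoter drives a recombinase that removes a floxed part of *Rela*, the gene of the RelA subunit of NF-κB. Deletion is therefore not limited to the cornea, since other stratified epithelia use the same promoter, and cells without the recombinase keep the gene.

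Tight junctions seal the space between epithelial cells near their apical side. Claudins and occludin cross the membrane there and are held by scaffold proteins such as ZO-1, and in the corneal epithelium this seal lies in the superficial cells and limits passage from the tear film. Adherens junctions hold neighbouring cells together through E-cadherin, whose tail binds catenins that connect it to actin and control its stability at the surface.

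*Rela* served as the check of the labels. Its level, in FPKM (fragments scaled by transcript length and library total, so that genes can be set side by side), was 36.5, 34.7 and 33.4 in the control and 4.93, 5.53 and 5.72 in the mutant samples. The log2 fold change of the mutant over the control mice was -2.75 (standard error 0.085, adjusted p = 5.5e-07). Here and below, adjusted p-values are Benjamini-Hochberg values of the edgeR quasi-likelihood test over the 12667 genes kept by a filter on low counts, and a gene is said to have risen or fallen at an adjusted p under 0.05. All 9 junction genes were kept by that filter. Totals of expected counts were 19492942 to 19733834 per sample, the first principal component separated the genotypes with 66.7% of the variance, and the second, with 12.4%, had mutant samples 1 and 3 at its ends. *Krt12*, the keratin that marks the corneal epithelium, had a mean of 19694 FPKM in the control and 18270.4 in the mutant samples.

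Of the 9 genes, 1 rose, 0 fell and the other 8 did not pass the test. Over all genes tested 13.2% passed, 7.82% as rises and 5.42% as falls, so 1 of 9 is near the share over the whole table. With the stricter limits of the study's methods (fold change of 2 or more, adjusted p of 0.001 or less) *Cldn1* was again the gene that passed, against 1.37% of all genes. The median log2 fold change of the 9 genes was 0.01, beside -0.0028 for all genes tested. *Cldn1* and *Ocln* were the 2 genes whose control and mutant samples did not overlap on TMM-scaled CPM (counts scaled by library size), which happened for 33.7% of all genes. In bulk RNA a change in the number of cells that use a gene cannot be told apart from a change in RNA per cell.

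**Figure D1:**
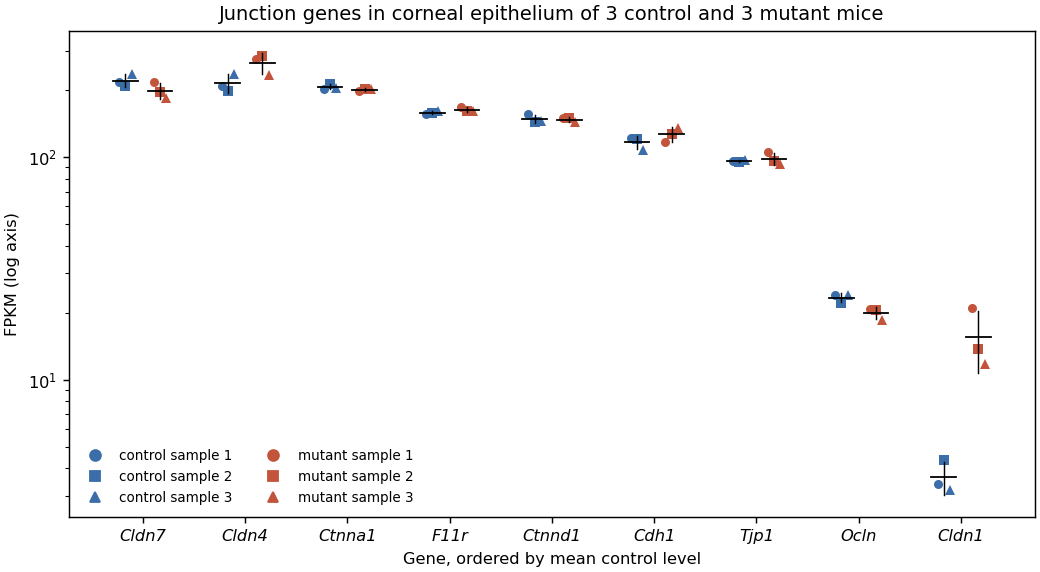
FPKM of each of the 9 junction genes in the 3 control and 3 mutant samples (points, log axis), with the mean (horizontal line) and SD (vertical line) of each genotype. The *Cldn1* points of the mutant samples lie at 11.8 to 20.9, above the control points at 3.20 to 4.33, whereas the points of each other gene lie close together.

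The promoter-side sequences of 3 of these genes are shown because they cover the gene that rose, the most abundant claudin with a difference near the threshold, and the gene that was lower in each mutant sample on FPKM and on CPM without passing the test. They come from the RefSeq table of GRCm38.p6, which held windows before the start of 7 of the 9 genes (10 windows in all, with none for *Cdh1* or for alpha-catenin). Each window holds 250 bases, read 5′ to 3′ on the strand of the gene and ending at the base before an annotated start. Capitals mark matches to CACCTG, the core bound by Snail-family repressors, and to TGANTCA, the core bound by AP-1, both searched on either strand. The *Cldn1* window, chr16:26371842-26372089 on the minus strand, lacks its last 2 bases, which an annotated exon covers. The *Cldn4* window is chr5:134946935-134947184 on the minus strand. The *Ocln* window is chr13:100552719-100552968 on the minus strand, and it lies inside the span of the gene because longer transcripts start upstream.
Cldn1: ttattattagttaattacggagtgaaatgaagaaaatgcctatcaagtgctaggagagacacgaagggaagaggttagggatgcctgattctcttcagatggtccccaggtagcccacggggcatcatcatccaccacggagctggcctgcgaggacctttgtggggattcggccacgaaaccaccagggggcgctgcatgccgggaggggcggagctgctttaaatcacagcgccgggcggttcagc
Cldn4: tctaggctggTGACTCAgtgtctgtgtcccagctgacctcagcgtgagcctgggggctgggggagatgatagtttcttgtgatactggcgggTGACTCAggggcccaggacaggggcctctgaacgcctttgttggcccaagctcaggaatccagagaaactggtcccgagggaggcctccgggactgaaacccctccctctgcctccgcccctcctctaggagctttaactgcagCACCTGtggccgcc
Ocln: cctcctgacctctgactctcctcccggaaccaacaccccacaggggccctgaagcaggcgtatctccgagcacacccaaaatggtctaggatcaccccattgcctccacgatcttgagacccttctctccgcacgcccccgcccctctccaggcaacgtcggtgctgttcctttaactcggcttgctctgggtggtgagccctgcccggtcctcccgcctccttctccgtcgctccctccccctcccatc
The printed *Cldn4* window held TGANTCA at 240 and 158 bases and CACCTG at 14 bases before the start. The windows of *Cldn1* and *Ocln* printed above held neither, although a further window of *Ocln*, which overlaps an exon and is not printed, held CACCTG at 213 and 68 bases before its start. In all, CACCTG was present in 4 of the 10 windows of the junction genes, those of *Cldn4*, *Ocln*, *Cldn7* (97 and 57 bases before a start) and *F11r* (122 bases). Exons covered 221 of the 250 bases of that *Cldn7* window and 155 of that *Ocln* window. The other window of each of these genes held no exon bases and no match. TGANTCA was present in 2 of the 10, those of *Cldn4* and *F11r* (109 bases before the start). Over all 32851 windows of the table the shares were 17.2% for CACCTG and 6.75% for TGANTCA. The 10 windows, from 7 genes, were not tested against these shares. The NF-κB consensus was found in 0 of the 10 windows of the junction genes and in 7.25% of all windows. These matches describe letters in short windows and not binding, and a window with no match says nothing of a factor acting elsewhere.

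*Cldn1* encodes a barrier-forming claudin that the epidermis needs to hold water, and it was the member with the lowest level in control cornea. In GRCm38, used for all positions, it spans 26356645 to 26371839 of chromosome 16 on the minus strand. Its FPKM was 3.40, 4.33 and 3.20 in the control and 20.9, 13.7 and 11.8 in the mutant samples. Each mutant sample was thus above each control sample, and mutant sample 1 was the highest. The mean rose from 3.64 ± 0.60 to 15.5 ± 4.8 FPKM (SD, n = 3 each), a 4.24-fold change (95% confidence interval 3.04 to 5.91). On the log2 scale the difference was 2.09 with a standard error of 0.21 and an adjusted p of 3.1e-04. It rested on 218, 275 and 204 counts against 1329, 873 and 758. The log2 fold change stayed between 1.80 and 2.26, and passed the test, in each of 13 other analyses (other scalings, filters and tests, a block for the replicate number, and each sample left out).

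*Cldn4* and *Cldn7*, claudins found in many epithelia, were the most abundant claudins of the layer. *Cldn4* (chromosome 5, 134945123 to 134946934, minus strand) had 209, 197 and 237 FPKM in the control and 277, 284 and 233 in the mutant samples. Mutant samples 1 and 2 lay above the control range, and mutant sample 3 lay within it. Its fold change was 1.23 (95% confidence interval 1.04 to 1.46) with an adjusted p of 0.105, which misses the threshold. It passed with DESeq2 (adjusted p = 0.0483) and without mutant sample 3 (log2 fold change 0.39, adjusted p = 0.0381). *Cldn7* (chromosome 11, 69964779 to 69967886, plus strand) had 217, 208 and 237 FPKM in the control and 217, 195 and 185 in the mutant samples. The groups overlapped, and the fold change was 0.882 (0.763 to 1.02, adjusted p = 0.237).

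*Ocln* encodes occludin, a membrane protein of the tight junction that is not itself a claudin. It spans 100496504 to 100553691 of chromosome 13 on the minus strand. It had 24.1, 22.0 and 23.9 FPKM in the control and 20.9, 20.5 and 18.5 in the mutant samples, so every mutant value was below every control value. The means were 23.4 ± 1.2 and 19.9 ± 1.3 FPKM (SD, n = 3 each). The fold change was 0.837 (95% confidence interval 0.737 to 0.951), and with an adjusted p of 0.071 it did not pass the test over all genes. None of the 13 other analyses called it, with adjusted p-values of 0.0522 to 0.202.

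*F11r* encodes JAM-A, an immunoglobulin-like adhesion protein of the tight junction, and *Tjp1* encodes ZO-1, a scaffold that binds claudins, occludin and JAM-A from the cytoplasm. *F11r* (chromosome 1, 171437561 to 171464593, plus strand) had 156, 158 and 161 FPKM in the control and 168, 161 and 161 in the mutant samples. By FPKM the lowest mutant value lay just above the highest control value, and by TMM-scaled CPM the groups overlapped. Its fold change was 1.03 (95% confidence interval 0.924 to 1.15, adjusted p = 0.736). *Tjp1* (chromosome 7, 65296165 to 65527808, minus strand) had 96.0, 95.3 and 97.0 FPKM in the control and 105, 96.0 and 93.4 in the mutant samples. The control samples of *Tjp1* spanned a narrow range that the mutant samples crossed on both sides. The fold change of 1.01 (0.887 to 1.14, adjusted p = 0.954) had no stable sign, since it was below 1 with upper-quartile scaling and in part of the analyses that left out a sample.

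The 3 genes of the adherens junction did not pass the test either. *Cdh1*, the gene of E-cadherin (chromosome 8, 106603350 to 106670247, plus strand), had 122, 121 and 107 FPKM in the control and 117, 128 and 136 in the mutant samples. The lowest mutant value lay inside the control range, and the fold change was 1.09 (95% confidence interval 0.959 to 1.23, adjusted p = 0.376). *Ctnna1*, the gene of alpha-catenin, which ties the complex to actin, had 203, 213 and 205 FPKM in the control and 198, 203 and 202 in the mutant samples. By FPKM the mutant values lay just below the control values, and by TMM-scaled CPM the groups overlapped. The fold change was 0.969 (0.872 to 1.08, adjusted p = 0.704). *Ctnnd1*, the gene of a catenin that binds the tail of E-cadherin near the membrane and limits its uptake (chromosome 2, 84586255 to 84658972, minus strand), had 156, 144 and 146 FPKM in the control and 149, 149 and 144 in the mutant samples. Its fold change was 0.989 (0.885 to 1.11, adjusted p = 0.916). In the annotation 61.2% of its exon bases overlap the gene *Gm28635*, which is not a row of the table, so reads of the 2 genes may have been combined and the value is uncertain. *Ctnnb1*, the gene of beta-catenin, which joins E-cadherin to alpha-catenin, had 165, 177 and 162 against 184, 165 and 172 FPKM. Its fold change was 1.03 (0.917 to 1.16, adjusted p = 0.749), and 12.3% of its 50-base transcript windows are shared, most with *Ulk4*.

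**Figure D2:**
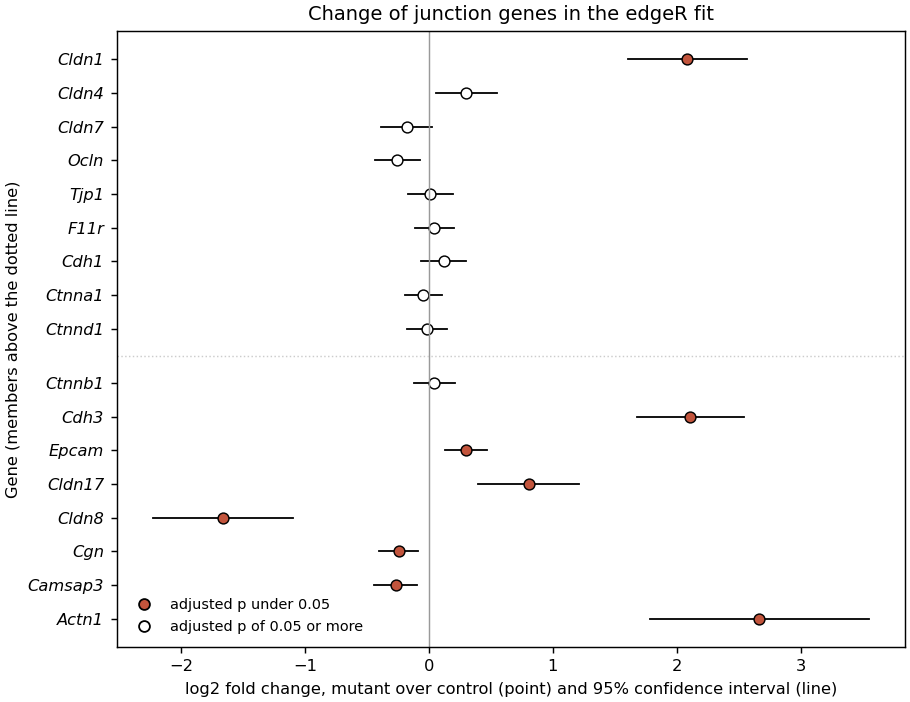
log2 fold change of the mutant over the control mice (point) with its 95% confidence interval (line) for the 9 junction genes, above a dotted line, and for *Ctnnb1* and the 7 other junction genes that passed the test, below it (filled where the adjusted p is under 0.05). Among the 9, the interval of *Cldn1* runs from 1.61 to 2.56, whereas the other intervals lie between -0.44 and 0.55.

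Mean levels differed widely among the 9 genes. Over all 6 samples, mean FPKM placed *Cldn1* at percentile 53.8 and *Ocln* at percentile 75.1 of the tested genes, and the other 7 between percentiles 95.2 and 98.1. The coefficient of variation over the control samples was lowest for *Tjp1* (0.919%) and highest for *Cldn1* (16.6%), which has the fewest reads. In the mutant samples it was lowest for *Ctnna1* (1.25%) and highest for *Cldn1* (31.1%).

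Because FPKM is per length, the share of each claudin in the summed FPKM of the 21 claudins of the table could be followed. The sum itself was 514 to 582 in the control and 523 to 614 in the mutant samples, which overlap. *Cldn7* made up 40.7% ± 0.17 of the sum in the control and 34.5% ± 1.4 in the mutant samples (SD, n = 3 each), and *Cldn4* 39.6% ± 1.2 and 45.9% ± 1.8. *Cldn7* was 40.8%, 40.5% and 40.8% in the control and 35.3%, 32.9% and 35.4% in the mutant samples. *Cldn4* was 39.5%, 38.4% and 40.8% in the control and 45.2%, 47.9% and 44.5% in the mutant samples. The shares of both genes did not overlap between the genotypes, and they moved in opposite directions although neither gene passed the test on its own counts. Because *Cldn4* and *Cldn7* make up most of the sum, a larger share of either leaves less for the other. Their opposite moves are therefore not separate results. On TMM-scaled CPM, 33.7% of all genes tested had groups without overlap. *Cldn1* was 0.641%, 0.842% and 0.550% of the sum in the control and 3.41%, 2.31% and 2.25% in the mutant samples. Each of these 3 shares gave an exact two-sided permutation p of 0.1, the smallest that 3 against 3 samples can give, so the design cannot reach 0.05. Shares of the same sum are not independent of each other. *Cldn23* was 10.1% ± 0.95 and 8.55% ± 0.35, also with p = 0.1 by the exact permutation test. *Cldn3* was 5.83% ± 0.45 and 4.23% ± 1.4 (SD, n = 3 each), with mutant sample 1 at 2.61% far below mutant samples 2 and 3 at 4.95% and 5.14%.

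**Figure D3:**
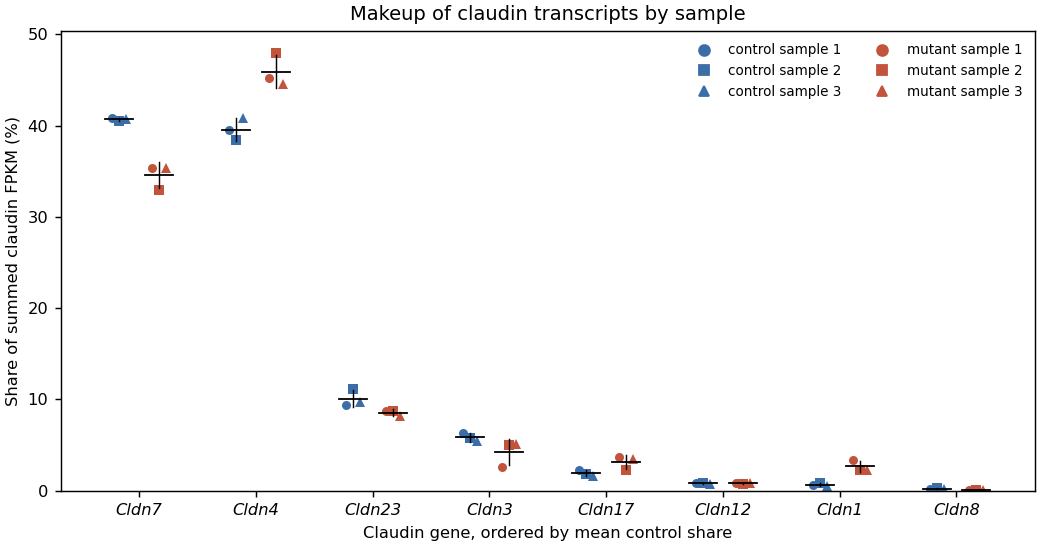
Share of the 8 most abundant claudins by control level in the summed FPKM of 21 claudins, in percent, for each of the 3 control and 3 mutant samples (points), with the mean (horizontal line) and SD (vertical line) of each genotype. *Cldn4* and *Cldn7* have like shares in the control samples, and in the mutant samples *Cldn4* lies at 44.5% to 47.9% and *Cldn7* at 32.9% to 35.4%.

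Beyond the 9 genes, 91 further tight and adherens junction genes were listed by role, of which 82 were in the table and 61 were tested. Of these, 4 rose and 3 fell, and their median log2 fold change was 0.0036. Their groups did not overlap for 23 of the 61, which is also near the background of 33.7%. Set beside the 13.2% of all genes that passed, 7 of 61 is again near the background. The counts for single junction lists below are parts of these 7. Of 18 other claudins in the table, the test covered 6, with 1 rise and 1 fall. *Cldn17* had 11.9, 9.60 and 9.40 FPKM in the control and 22.5, 13.3 and 18.3 in the mutant samples, without overlap. It rose 1.74-fold (95% confidence interval 1.32 to 2.31, adjusted p = 0.018), a call that was lost without control sample 2 and without control sample 3. *Cldn8*, a claudin best known from kidney tubules, had 1.10, 1.39 and 1.02 FPKM in the control and 0.35, 0.30 and 0.45 in the mutant samples. It fell to 0.315 of the control level (0.213 to 0.466, adjusted p = 0.0025), at low levels in both genotypes. With limma on log2(FPKM + 1), a scale that shrinks changes of low genes, its log2 fold change was -0.66 in place of -1.67. *Cldn23*, the most abundant of these other claudins, had 49.8, 57.5 and 56.6 against 53.6, 52.1 and 42.6 FPKM.

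The 5 tested genes among other tight junction membrane proteins gave 0 rises and 0 falls, with a median log2 fold change of -0.03. *Ildr1*, an angulin of tricellular contacts and the most abundant of them, had 48.2, 48.6 and 48.9 FPKM in the control and 44.3, 52.8 and 46.0 in the mutant samples. Of 22 plaque and polarity genes of the tight junction, 0 rose and 1 fell, with a median of -0.08. The fall was that of *Cgn*, the gene of cingulin, which links the plaque to the cytoskeleton. It had 45.0, 47.9 and 47.5 FPKM in the control and 37.8, 39.5 and 41.2 in the mutant samples. Its fold change of 0.844 (95% confidence interval 0.756 to 0.941, adjusted p = 0.048) lay at the threshold and failed it in 9 of 13 other analyses. *Cgn* also shares 17.2% of its 50-base windows with other genes, most with *BC021767*. *Ybx3*, the most abundant gene of that list, had 389, 365 and 382 against 394, 474 and 452 FPKM.

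Among 9 other cadherins and nectins, 2 rose and 0 fell, with a median log2 fold change of 0.07. Beside the 7.82% of all genes tested that rose, a list of 9 is too small to be told apart. *Cdh3*, the gene of P-cadherin, which marks basal cells of stratified epithelia, had 2.39, 1.29 and 1.59 FPKM in the control and 8.29, 7.72 and 6.74 in the mutant samples. No mutant value came near a control value, and the rise was 4.32-fold (95% confidence interval 3.20 to 5.82, adjusted p = 1.6e-04). As a share of the summed FPKM of *Cdh1* and *Cdh3*, *Cdh3* made up 1.48% ± 0.43 in the control and 5.68% ± 0.94 in the mutant samples (SD, n = 3 each, exact permutation p = 0.1), a measure chosen after its values were seen. *Epcam*, the gene of an adhesion protein that binds claudins, rose from 31.6, 33.0 and 32.8 to 41.9, 39.7 and 38.3 FPKM. Its change was 1.23-fold (1.09 to 1.38, adjusted p = 0.030), and 5 of 13 other analyses did not call it. *Nectin4*, the most abundant nectin, had 140, 137 and 138 against 141, 140 and 129 FPKM.

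Among 19 other catenins and plaque proteins of the adherens junction, 1 rose and 1 fell, with a median of 0.06. *Actn1*, the gene of an actin-bundling alpha-actinin, had 0.31, 0.54 and 0.40 FPKM in the control and 3.79, 1.25 and 2.47 in the mutant samples. It rose 6.35-fold (95% confidence interval 3.45 to 11.7, adjusted p = 0.0022) from a low level. With limma on log2(FPKM + 1) its log2 fold change was 1.24 in place of 2.67. *Actn4*, a related alpha-actinin, was the most abundant gene of the list with 1230, 1227 and 1255 against 1189, 1352 and 1320 FPKM. *Camsap3*, the gene of a microtubule-end protein found at adherens junctions, had 25.4, 27.1 and 26.3 against 20.3, 22.8 and 22.7 FPKM. Its fold change was 0.830 (0.736 to 0.936, adjusted p = 0.048), and 10 of 13 other analyses did not call it.

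**Figure D4:**
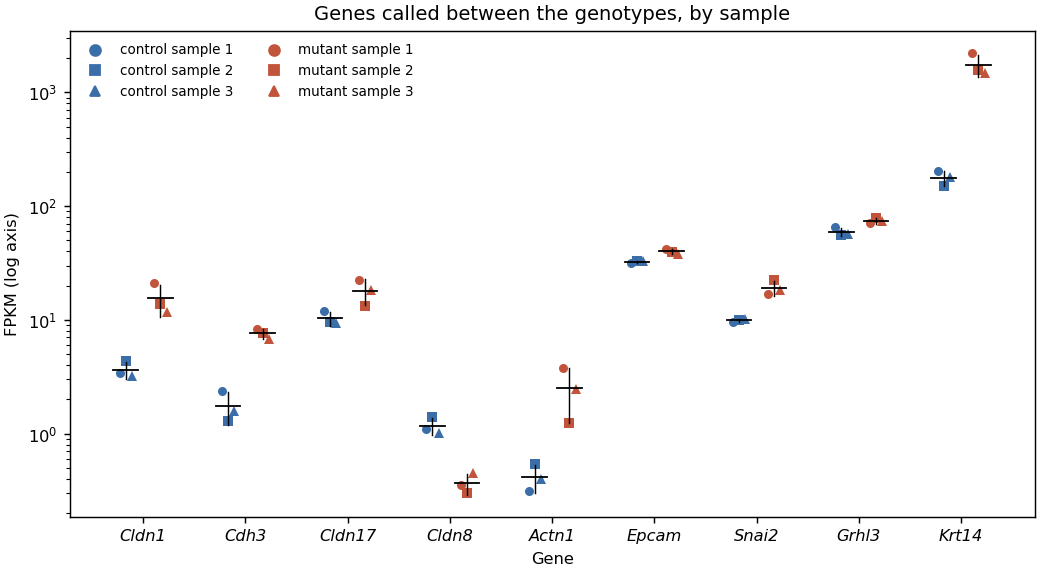
FPKM (log axis) in each of the 6 samples (points), with the mean (horizontal line) and SD (vertical line) of each genotype, for *Cldn1*, 5 other junction genes and 2 transcription factors that passed the test, and the keratin *Krt14*, a marker that is no junction gene. The 3 mutant points of *Cdh3* lie at 6.74 to 8.29, above the control points at 1.29 to 2.39, whereas those of *Cldn8* lie at 0.30 to 0.45, below the control points at 1.02 to 1.39.

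Transcription factors known to act on epithelial junction genes were described in the same way. Of 14 listed, 10 were tested, 2 rose and 0 fell. Over all genes tested 7.82% rose and 5.42% fell, and a list of 10 is too small to be told apart from those shares. *Snai2*, the gene of the repressor Slug, had 9.59, 9.96 and 10.2 FPKM in the control and 16.9, 22.5 and 18.3 in the mutant samples. It rose 1.94-fold (95% confidence interval 1.62 to 2.31, adjusted p = 7.2e-04). *Grhl3*, the gene of a grainyhead-like activator of epithelial barrier genes, had 65.0, 56.2 and 56.5 FPKM in the control and 70.4, 78.9 and 73.4 in the mutant samples, a rise of 1.25-fold (1.10 to 1.42, adjusted p = 0.031) that 4 of 13 other analyses did not call. *Elf3*, the most abundant of the list, had 474, 506 and 587 against 568, 542 and 478 FPKM. *Snai1*, *Zeb1*, *Zeb2* and *Twist1*, repressors of *Cdh1* in other settings, were at 0.13 FPKM or less in every sample and were not tested.

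**Figure D5:**
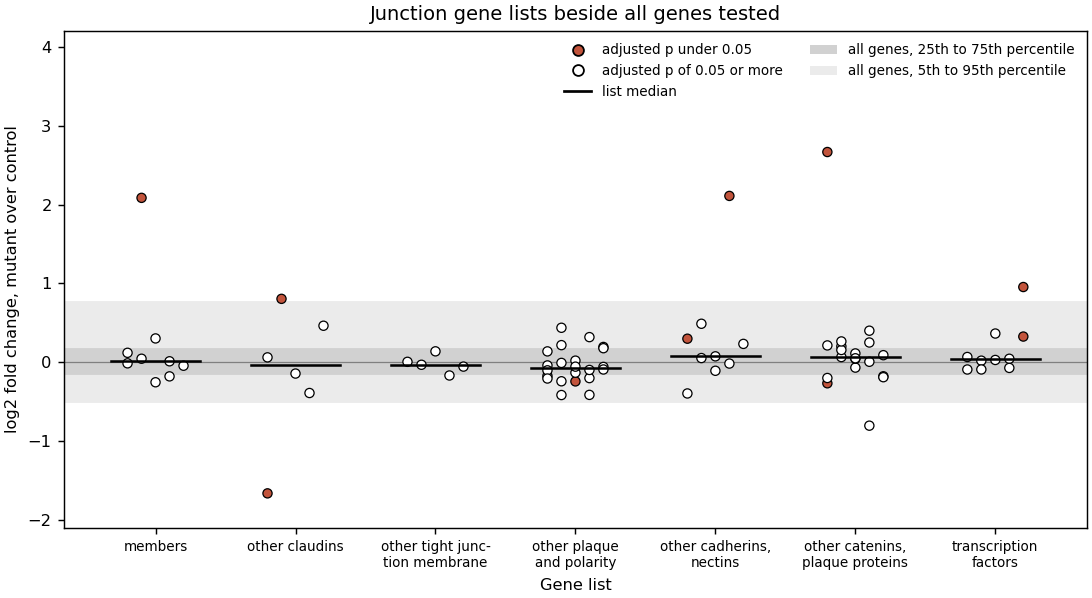
log2 fold change of every tested gene in each junction list (points, filled where the adjusted p is under 0.05), with the median of the list as a line and the 5th to 95th and 25th to 75th percentiles of all tested genes as shaded bands. Most points lie within the wider band, from -0.50 to 0.77, and list medians lie between -0.08 and 0.07.

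The pattern of each gene across the 6 samples was also compared with that of every other tested gene, as Pearson's r on log2(CPM + 0.5). The most alike gene was *Slc25a30* for *Cldn1* (r = 0.997), *Gdpd5* for *Cldn4* (0.989), *Rit1* for *Cldn7* (0.991), *Krt13* for *Ocln* (0.993) and *Slc5a1* for *Tjp1* (0.992). It was *Zfp947* for *F11r* (0.990), *Zswim1* for *Cdh1* (0.988), *Tbc1d4* for *Ctnna1* (0.998) and *Fancl* for *Ctnnd1* (0.989). Each is the highest value over all other genes tested, from 6 points that share their libraries, so they describe likeness in these samples only. Over the 36 pairs of the 9 genes, r ran from -0.975 (*Cldn7* with *Cdh1*) to 0.888 (*Cldn7* with *Ocln*), and after the mean of each genotype was removed from -0.997 (*F11r* with *Cdh1*) to 0.940 (*Cldn7* with *F11r*). Such values were unstable: *F11r* with *Cdh1* had -0.358 before the means were removed, and *Cldn4* with *Ocln* went from -0.322 to 0.912.

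Markers of layers and cell types are given beside these results, both those that differed between the genotypes and those that did not. *Krt14*, a keratin of basal epithelial cells, had 203, 150 and 181 FPKM in the control and 2204, 1580 and 1474 in the mutant samples, and it rose 9.98-fold (95% confidence interval 7.55 to 13.2, adjusted p = 1.1e-05). Like *Cldn1*, *Krt14* was highest in mutant sample 1. *Krt5* and *Trp63*, which the paper names with this keratin among markers of corneal epithelial stem cells, did not pass the test. *Krt5* had 12077, 11549 and 12786 against 10806, 11726 and 12189 FPKM (fold change 0.951, adjusted p = 0.591). *Trp63* had 76.0, 84.4 and 65.7 against 71.2, 88.8 and 94.8 FPKM (fold change 1.03, adjusted p = 0.820). The groups of both genes overlapped. The 6 corneal epithelial markers summed to 43660 to 47728 FPKM in the control and 40506 to 43899 in the mutant samples, with 1 rise (*Krt14*) and 1 fall (*Aldh3a1*, the gene of the abundant corneal crystallin enzyme, log2 fold change -0.25, adjusted p = 0.047). The 5 conjunctival markers summed to 1394 to 1618 against 1096 to 1217 FPKM, with 1 of 4 tested falling (*Krt13*, log2 fold change -0.45, adjusted p = 0.015) and the goblet cell mucin *Muc5ac* at 0.01 FPKM or less. The 5 epidermal markers summed to 5.94 to 6.77 against 4.99 to 6.31 FPKM, and 0 of 2 tested passed.

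Of 7 stromal keratocyte markers 1 was tested and it rose, *Dcn*, with 0.08, 0.06 and 0.03 FPKM in the control and 1.80, 0.96 and 0.39 in the mutant samples (adjusted p = 0.0051). Its counts were 3, 2 and 1 in the control and 66, 34 and 14 in the mutant samples. The filter on low counts kept *Dcn* only through the mutant samples, so its being tested and its rise are not separate results. The 7 keratocyte markers summed to 0.45 to 0.61 against 0.56 to 3.74 FPKM. Of those too low to be tested, *Col1a1* had 0.01, 0.01 and 0.02 against 0.20, 0.20 and 0.05 FPKM, without overlap. *Col3a1* had 0.01, 0 and 0 against 0.29, 0.14 and 0.05, also without overlap. *Lum* had 0, 0.02 and 0 against 0.57, 0.25 and 0. The groups of *Lum*, *Col1a2*, *Ptgds* and *Kera* overlapped, with *Kera* at 0.07 or less. The 6 leukocyte markers summed to 81.3 to 89.2 against 73.5 to 121 FPKM, and 0 of 2 tested passed. Most of that sum was *Itgam*, with 64.8, 63.9 and 67.2 against 94.8, 64.4 and 51.0 FPKM, and *Cd68*, with 21.5, 17.3 and 21.8 against 24.5, 24.1 and 22.1. *Lyz2*, too low to be tested, had 0, 0 and 0.05 FPKM in the control and 1.17, 0.64 and 0.19 in the mutant samples, without overlap and highest in mutant sample 1, as *Cldn1* and *Dcn* were, and *Ptprc* was at 0.15 or less. The 5 blood endothelial markers summed to 0.03 to 0.12 against 0.14 to 0.24 FPKM, with *Cldn5* and *Cdh5* at 0.04 or less. Most of the sum in the mutant samples was *Pecam1*, with 0.03, 0.03 and 0.08 against 0.13, 0.12 and 0.23 FPKM. Its groups did not overlap, at a level too low to be tested. The 3 corneal endothelial markers summed to 6.06 to 7.21 against 6.42 to 11.8 FPKM. Nearly all of that sum was *Slc4a11*, with 7.11, 5.96 and 6.78 against 6.29, 7.78 and 11.6 FPKM. *Col8a2* was at 0.06 or less and *Cdh2* at 0.13 or less. The 4 melanocyte markers summed to 4.29 to 4.97 against 4.65 to 5.18 FPKM, and none of the tested genes of either list passed. The part of any of these markers in the junction results was not tested.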

How the data were processed

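Bulk RNA-seq libraries of the corneal epithelial layer came from 3 control and 3 mutant mice. The authors filtered 50-base single-end reads, aligned them with Bowtie2 2.2.5 and deposited expected counts per gene from RSEM 1.2.12 (tools and versions as in the submitters' processing notes), which need not be whole, with no further scaling. The authors also deposited FPKM values, which take account of transcript length and library total. The processing notes name mm9, but the table's coordinates and transcript versions are those of GRCm38, which was used for positions. The study's methods describe rRNA removal, whereas the labels name a TruSeq kit. The deposited group means, log2 fold changes, p-values and q-values of the authors' comparison were not used.

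Samples were grouped by the genotype in the labels. Expected counts were rounded and compared with the quasi-likelihood test of edgeR 4.0.16 (R 4.3.3), fitted to genotype after filterByExpr (minimum count 10, minimum total 15) and TMM scaling, and adjusted by the Benjamini-Hochberg method over all genes tested. The standard error of a log2 fold change is its size over the square root of F. Correlations used log2(CPM + 0.5), and claudin shares were compared with exact permutation tests. Alternatives were upper-quartile scaling, DESeq2 1.42.0, a filter of 10 counts in all samples or none, limma 3.58.1 on log2(FPKM + 1) and log2(FPKM + 0.1), a replicate block and each sample left out. For the claudin shares they were TMM-scaled CPM in place of FPKM, claudins with a mean of at least 1 FPKM only, and each sample left out.

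Genes named are the 9 members, *Rela*, *Ctnnb1*, in each list the genes that passed the test (up to 5) and the most abundant one, the most alike gene of each member, and markers that moved or were near 0. *Cldn3*, *Krt5*, *Trp63* and *Slc4a11* were named after their values were seen. The members and lists were chosen with earlier results of these data known. At these totals depth was alike in all samples, and intervals cover the spread between 3 samples per genotype. The scripts were tested on simulated data.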

Additional observations from a re-analysis of the deposited data

How the results depend on the processing

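*Cldn1*, *Cdh3*, *Cldn8*, *Actn1*, *Snai2* and *Rela* kept their direction and their call in all 13 alternatives, but not their size: the log2 fold change ranged from 1.24 to 2.98 for *Actn1*, from -1.83 to -0.66 for *Cldn8*, from 1.65 to 2.39 for *Cdh3*, from 0.82 to 1.03 for *Snai2*, from -2.78 to -2.49 for *Rela* and from 1.80 to 2.26 for *Cldn1*. The smallest sizes of *Actn1*, *Cldn8*, *Cdh3*, *Rela* and *Cldn1* came with limma on log2(FPKM + 1), whose pseudocount shrinks changes of low genes. The number of genes called at an adjusted p under 0.05 was 1678 and ranged from 857 to 1869 with a sample left out. At the stricter thresholds it was 173, but 342 with DESeq2, 114 with limma on log2(FPKM + 1) and 36 to 193 with a sample left out. Of the 9 members 1 was called, but 2 with DESeq2 and 1 to 2 with a sample left out, the addition being *Cldn4* both times. Of the other junction genes 7 were called, but 4 with the replicate block and 3 to 11 with a sample left out (3 without control sample 2 or 3, 4 without control sample 1 or mutant sample 2, 11 without mutant sample 1). The gain of *Cldn1* in the claudin sum was 1.98 percentage points by FPKM and 3.94 by TMM-scaled CPM, which does not divide by transcript length. Some log2 fold changes near 0 changed sign: *Tjp1* with upper-quartile scaling (-0.00096), and with a sample left out *Tjp1* (-0.059 to 0.066), *Ctnnd1* (-0.045 to 0.013), *Ctnnb1* (-0.0038 to 0.074), *Ildr1* (-0.12 to 0.0089), *Nectin4* (-0.047 to 0.030) and *Elf3* (-0.056 to 0.12). Unless a smaller sample or the missing length scaling is the change itself, the cause was not tested. Same-numbered samples did not deviate together (correlations of -0.018, 0.056 and -0.061 over 12667 genes), so the numbers were not taken as pairs. The replicate block called 1419 genes, 176 at the stricter thresholds, and 1 of the 9 members. Depth limits *Actn1*, *Cldn8* and the markers near 0 most.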
